A study of Mus musculus with 6 samples.

Results

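Ctgf and 5 other genes that mark cortical layer 6b in the mouse (Cplx3, Nxph4, Nxph3, Tmem163 and Moxd1) were followed across 6 RNA-seq libraries of orbitofrontal cortex. They were found by gene name: 6 of 6 were listed, among 13348 genes in all, and they had 8 listed transcripts among 24676. Ctgf was put at the head of this group because its own level separated the groups compared below, so its difference is given as a description without a test. The other 5 were named as layer 6b markers, with earlier results of these data known.

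Of the 6 libraries, 3 were controls, which the series names scrambled short hairpin RNA (shRNA) without saying how it was given. The other 3 were from mice whose orbitofrontal cortex was injected with a lentivirus carrying an shRNA against the splice junction of circHomer1a, a circular RNA of the Homer1 gene, and are called knockdown. All mice were C57BL/6 and 12 weeks old, and the labels say nothing of sex, of pooling or of how many cells took up the virus. Nor do they name the animal behind each library, so the spread that p-values rest on is that between these samples and may be technical.

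Layer 6b is the thin deepest layer of the cortex, lying on the white matter, and part of its neurons are survivors of the embryonic subplate. Ctgf (connective tissue growth factor, also named Ccn2) is a secreted matrix-associated protein and the classic label of this layer in mouse cortex. In mouse forebrain, Ctgf from neurons holds back the maturation of oligodendrocytes, and in many cell types the gene is switched on by YAP and TAZ with TEAD factors, by TGF-beta signalling and by SRF. Cplx3 encodes complexin 3, which binds the SNARE complex of vesicle fusion. Nxph3 and Nxph4 encode neurexophilins, secreted glycoproteins of a family that binds alpha-neurexins. Tmem163 encodes a zinc transporter, and Moxd1 a relative of dopamine beta-hydroxylase.

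The transcripts of Ctgf and Cplx3 are shown first because they carry the largest differences in this group and because each gene has a second listed form with another coding sequence. The second forms also differ from the first in their ends. In Ctgf-201 (348 codons) exon 4 is joined to exon 5, which codes for the C-terminal cystine-knot domain. Ctgf-203 (293 codons) keeps the 371 bases of intron 4, and its reading frame ends inside them. The sequences run 5′ to 3′ on the plus strand of chromosome 10 (GENCODE M21, GRCm38). Each opens with chr10:24596914-24596943, the last 30 bases of exon 4, in lower case. The capitals are the next 30 bases of the transcript, chr10:24597315-24597344 of exon 5 in the first and chr10:24596944-24596973 of intron 4 in the second.
Ctgf-201: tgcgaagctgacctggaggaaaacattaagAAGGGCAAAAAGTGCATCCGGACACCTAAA
Ctgf-203: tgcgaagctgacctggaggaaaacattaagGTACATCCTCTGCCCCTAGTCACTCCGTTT

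Cplx3-201 (158 codons) has 3 exons, and Cplx3-202 (75 codons) lacks the 88 bases of exon 2. Both sequences are from the minus strand of chromosome 9 and open with 30 bases of exon 1 (chr9:57605981-57606010). In the first, capitals mark exon 2 (chr9:57604717-57604804), followed by 30 bases of exon 3 in lower case. In the second, capitals mark the same 30 bases of exon 3 (chr9:57602432-57602461), joined directly to exon 1.
Cplx3-201: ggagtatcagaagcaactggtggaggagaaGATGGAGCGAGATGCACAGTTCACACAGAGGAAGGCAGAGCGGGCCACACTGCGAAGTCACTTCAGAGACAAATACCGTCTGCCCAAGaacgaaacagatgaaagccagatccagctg
Cplx3-202: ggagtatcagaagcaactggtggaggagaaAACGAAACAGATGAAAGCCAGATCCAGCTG

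Levels are in FPKM, fragments scaled by the length of the feature and by the mapped total of the library, so they can be compared between genes of different length. Differences are knockdown minus control on the log2(FPKM + 1) scale, which understates the change of low genes. They come from a limma fit over the 11961 genes with a mean of at least 1 FPKM, and all 6 genes passed this minimum. A difference is called at a Benjamini-Hochberg adjusted p under 0.05. No gene in the whole table was called (0% of 11961), while 427 had an unadjusted p under 0.05, so no gene named here passed. The FPKM of all listed genes summed to between 256047 and 285833 per library. Homer1, the host gene of the targeted circle, lay between 8.97 and 12.1 FPKM in control and between 7.44 and 16.1 FPKM in knockdown libraries, but its gene value does not measure the circle.

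Ctgf (ENSMUSG00000019997.11, chr10:24595442-24598683, plus strand) was at 13.6, 12.8 and 16.7 FPKM in control 1, 2 and 3. It was at 28.9, 23.4 and 22.0 FPKM in knockdown 1, 2 and 3. The lowest knockdown library thus lay above the highest control, with control 3 nearest to it and knockdown 1 at the top. The means were 14.3 ± 2.05 and 24.7 ± 3.68 FPKM (SD, n = 3 each), a ratio of 1.72 and a log2 fold change of 0.74. In whole-tissue RNA, a change in the number of cells that express a gene and a change in RNA per cell cannot be told apart.

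Cplx3 (ENSMUSG00000039714.9, chr9:57599992-57606281, minus strand) was the member that lay closest to Ctgf. It was at 6.60, 6.37 and 8.84 FPKM in the control libraries (1 to 3) and 12.2, 10.8 and 11.2 FPKM in the knockdown libraries (1 to 3). Here too the groups did not overlap, control 3 was the highest control and knockdown 1 the highest library. The means were 7.27 ± 1.37 and 11.4 ± 0.717 FPKM (SD, n = 3 each), with a log2 fold change of 0.60 (95% interval 0.29 to 0.91, limma adjusted p = 0.948). Every knockdown library was higher than every control in 4.45% of all tested genes. Of the 5 members other than Ctgf, this held for 1, Cplx3.

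**Figure D1:**
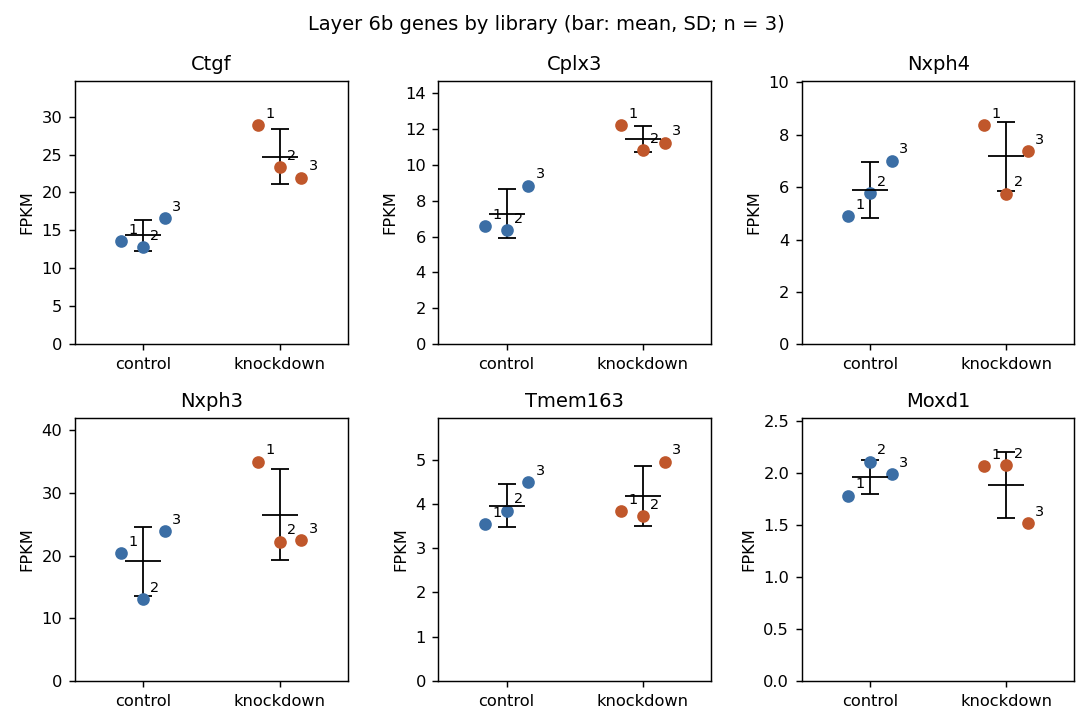
FPKM of the 6 layer 6b genes (vertical axes from 0) in each library, with the replicate number beside each point and bars for the mean and SD of 3 libraries. The groups are apart for Ctgf (12.8 to 16.7 against 22.0 to 28.9 FPKM) and Cplx3 (6.37 to 8.84 against 10.8 to 12.2 FPKM) and overlap for the other 4 genes.

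The neurexophilin genes had higher means in knockdown libraries, but their groups overlapped. Nxph3 (ENSMUSG00000046719.7, chr11:95509845-95514570, minus strand) was at 20.4, 13.1 and 23.9 FPKM in the control libraries (1 to 3) and 35.0, 22.2 and 22.5 FPKM in the knockdown libraries (1 to 3). Its higher mean came mostly from knockdown 1 at the top and control 2 at the bottom, while knockdown 2 and 3 lay below control 3. The difference was 0.46 on the log2 scale (95% interval -0.13 to 1.06, limma adjusted p = 0.948), and it was 0.22 without control 2 and 0.25 without knockdown 1.

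Nxph4 (ENSMUSG00000040258.6, chr10:127525473-127534559, minus strand) was at 4.89, 5.77 and 7.01 FPKM in the control libraries (1 to 3) and 8.38, 5.75 and 7.39 FPKM in the knockdown libraries (1 to 3). Knockdown 2 lay within the control range. The difference was 0.24 on the log2 scale (95% interval -0.14 to 0.63, limma adjusted p = 0.948), and leaving out any 1 library gave values between 0.14 and 0.38. Control 3 and knockdown 1 were the highest libraries of their groups for Nxph3 and Nxph4, as for Ctgf and Cplx3. This order was not particular to layer 6b genes. Among markers of layer 6 corticothalamic neurons, Rprm and Tbr1 had it too, while others such as Syt6 did not. Its share over all genes was not counted.

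Tmem163 and Moxd1 had nearly the same mean in both groups. Tmem163 (ENSMUSG00000026347.13, chr1:127486546-127679548, minus strand) was at 3.54, 3.85 and 4.49 FPKM in the control libraries (1 to 3) and 3.84, 3.73 and 4.96 FPKM in the knockdown libraries (1 to 3). It differed by 0.06 on the log2 scale (95% interval -0.25 to 0.37, limma adjusted p = 0.967). Moxd1 (ENSMUSG00000020000.7, chr10:24223517-24302790, plus strand) was at 1.78, 2.11 and 1.99 FPKM in the control libraries (1 to 3) and 2.06, 2.07 and 1.52 FPKM in the knockdown libraries (1 to 3). It differed by -0.04 on the log2 scale (95% interval -0.32 to 0.24, limma adjusted p = 0.977). These intervals are not set against the 0.74 of Ctgf, since that value chose Ctgf and the scale understates the change of low genes. The sign of both genes turned without knockdown 3.

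In order of mean control level, Nxph3 stood first at 19.1 ± 5.53 FPKM, followed by Ctgf (14.3 FPKM), Cplx3 (7.27 FPKM), Nxph4 (5.89 ± 1.07 FPKM), Tmem163 (3.96 ± 0.486 FPKM) and Moxd1 (1.96 ± 0.166 FPKM; SD, n = 3). The control ranges of Nxph3 and Ctgf overlapped, as did those of Cplx3 and Nxph4, and the other neighbours in this order did not. The order by mean was the same in knockdown libraries, where the pair with overlapping ranges was Nxph3 and Ctgf.

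The level of Cplx3 relative to Ctgf stayed within a narrow range. The ratio of their FPKM values was 0.487, 0.497 and 0.530 in the control libraries (1 to 3). It was 0.423, 0.464 and 0.512 in the knockdown libraries (1 to 3), and the groups overlapped. The ratio of Nxph3 to Ctgf was 1.32 ± 0.261 in control and 1.06 ± 0.134 in knockdown libraries (SD, n = 3 each), and these groups also overlapped. The ratio of Nxph4 to Ctgf went from 0.411 ± 0.0461 to 0.291 ± 0.0451 (SD, n = 3 each), that of Tmem163 to Ctgf from 0.277 ± 0.0210 to 0.173 ± 0.0478 and that of Moxd1 to Ctgf from 0.138 ± 0.0235 to 0.0764 ± 0.0108. In the ratios of Nxph4, Tmem163 and Moxd1 every knockdown library lay below every control. The ratios share the Ctgf value that chose the group, so their differences are a description.

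Likeness to Ctgf was measured as the root mean square difference of log2(FPKM + 1), each gene being centred on its mean over the 6 libraries. By this measure Cplx3 was the second nearest of 11960 genes, at a difference of 0.11, where a gene with the same value in all libraries would be at 0.40. The other 4 of the 5 nearest were Lgals3bp (0.08), Pds5a (0.14), Cuedc1 (0.15) and Mark4 (0.16), and in each of them every knockdown library was higher than every control. Nearness to Ctgf in itself brings this separation, so it is a description. Lgals3bp, a secreted galectin-binding glycoprotein, was at 1.98, 2.15 and 2.72 FPKM in the control libraries (1 to 3) and 6.35, 4.34 and 4.09 FPKM in the knockdown libraries (1 to 3). Pds5a, a cohesin regulator, lay between 1.08 and 2.32 FPKM in control and between 2.75 and 3.14 FPKM in knockdown libraries. Mark4, a kinase of microtubule-associated proteins, lay between 8.10 and 12.6 FPKM and between 15.8 and 18.1 FPKM. Nxph3 ranked at 94, Nxph4 at 476, Tmem163 at 5182 and Moxd1 at 6416. The rank of Cplx3 was between 1 and 4 under 11 of 12 other settings. Without control 1 it was 22, and that of Nxph4 was then 2495. With any 1 library left out, the rank of Nxph3 lay between 65 and 862, that of Nxph4 between 86 and 2495, that of Tmem163 between 2382 and 7225 and that of Moxd1 between 3778 and 7948.

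**Figure D2:**
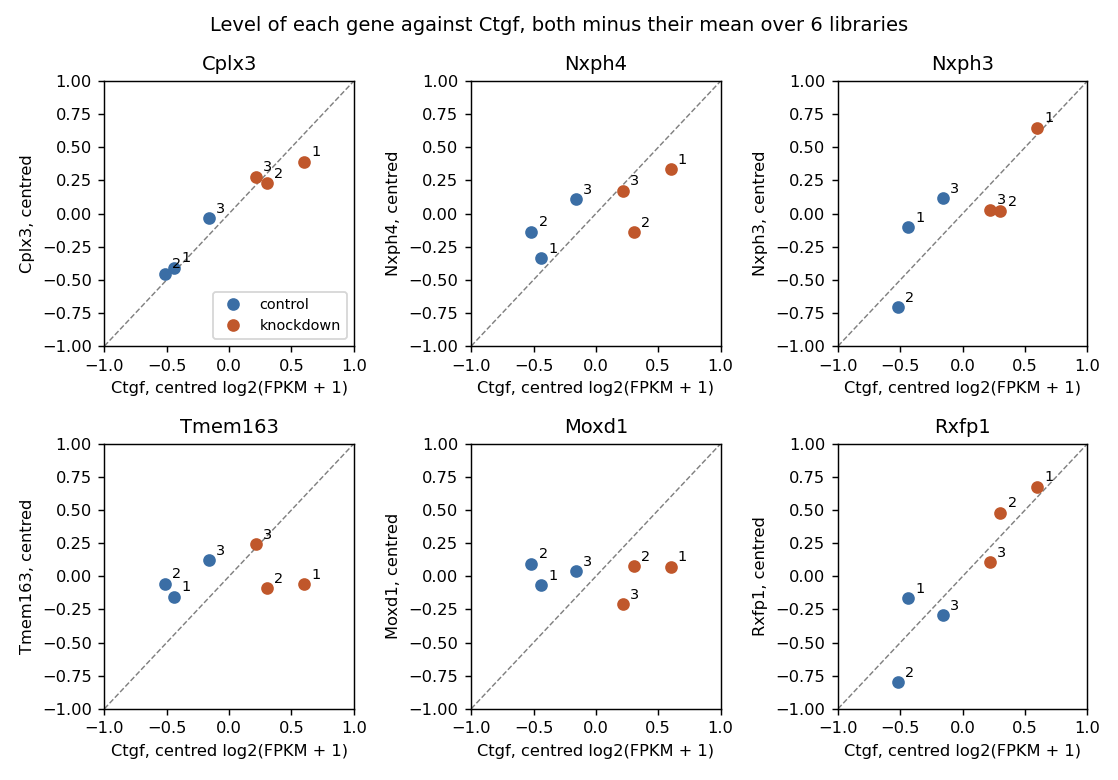
Each panel plots 1 gene against Ctgf, both as log2(FPKM + 1) minus the gene's mean over the 6 libraries, with replicate numbers, and the dashed line marks an equal deviation. Cplx3 lies along the line, Nxph3, Nxph4 and Rxfp1 scatter around it, and Tmem163 and Moxd1 stay near 0 while Ctgf spreads.

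The main transcript of Ctgf held the difference between groups. Ctgf-201 was at 14.9, 13.9 and 18.8 FPKM in the control libraries (1 to 3) and 33.5, 26.7 and 25.9 FPKM in the knockdown libraries (1 to 3), a ratio of means of 1.81. Ctgf-203, the form with intron 4 printed above, was at 1.24, 1.37 and 1.01 FPKM in control and at 0.943, 1.15 and 0.289 FPKM in knockdown libraries, with overlapping groups. Its mean over the 6 libraries was just under 1 FPKM, so it was not tested.

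As a share of the summed FPKM of both forms, Ctgf-203 was 7.66%, 8.97% and 5.08% in the control libraries (1 to 3). It was 2.74%, 4.13% and 1.11% in the knockdown libraries (1 to 3). The share was lower in every knockdown library than in any control, with knockdown 3 the lowest, but it shares the Ctgf level that chose the gene and is a description. The deposited gene value of Ctgf equalled the length-weighted sum of both transcripts divided by the 2861 bases of its union of exons, with a largest difference of -0.0113%. It therefore runs below the value of Ctgf-201 alone.

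Cplx3-201 was at 6.80, 6.58 and 9.05 FPKM in the control libraries (1 to 3) and 12.4, 11.1 and 11.4 FPKM in the knockdown libraries (1 to 3). Its log2 fold change was 0.59 (limma adjusted p = 0.846 over 18476 transcripts). Cplx3-202, which skips exon 2, was listed at 0 in control 1 and 2 and at 0.395 FPKM in control 3. It was at 1.16, 0.429 and 0.841 FPKM in knockdown 1, 2 and 3, each above the highest control, a pattern found in 5.1% of all listed transcripts. It was too low to be tested, and knockdown 2 and control 3 were nearly equal.

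Tmem163-205, Nxph3-201, Nxph4-201 and Moxd1-201 were the sole listed transcripts of their genes and had log2 fold changes of 0.07, 0.46, 0.24 and -0.04. Limma called 0.103% of all tested transcripts, and none of the 5 tested transcripts of the members other than Ctgf was among them. Of these 5, Cplx3-201 was higher in every knockdown library than in any control, as were 4.57% of all tested transcripts. No listed transcript of the group was lower in every knockdown library, which held for 4.22% of all tested and 4.31% of all listed transcripts.

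**Figure D3:**
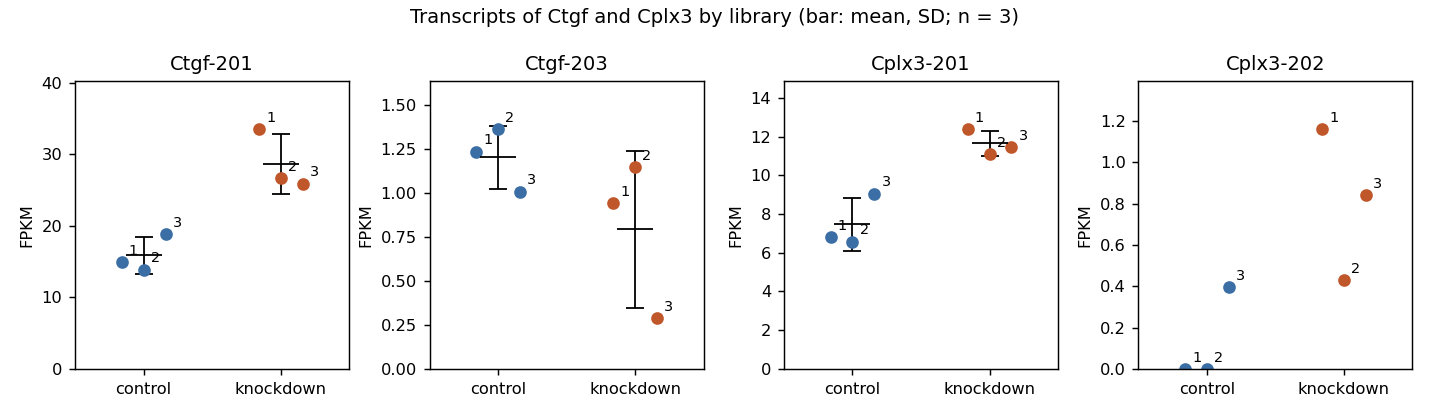
FPKM of the listed transcripts of Ctgf and Cplx3 (vertical axes from 0) in each library, with bars for the mean and SD of 3 libraries except for Cplx3-202. For Ctgf-201 and Cplx3-201 the knockdown points all lie above the control points, Ctgf-203 overlaps between groups, and Cplx3-202 is listed at 0 in control 1 and 2.

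The promoter of Cplx3 is shown because this gene lay closest to Ctgf across libraries. RefSeq promoter sequences (GRCm38.p6) were matched for 3 of the 6 genes, Cplx3, Tmem163 and Moxd1. The window is chr9:57606232-57606531 on the minus strand, from 250 bases before the start site to 50 after it, and capitals mark CACGTG, an E-box that bHLH factors bind.
Cplx3: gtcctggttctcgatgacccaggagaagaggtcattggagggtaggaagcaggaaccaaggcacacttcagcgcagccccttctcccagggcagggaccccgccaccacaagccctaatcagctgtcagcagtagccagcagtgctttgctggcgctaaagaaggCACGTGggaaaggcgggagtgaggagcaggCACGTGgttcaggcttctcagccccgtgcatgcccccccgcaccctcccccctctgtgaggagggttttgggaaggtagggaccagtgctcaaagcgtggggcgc

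This E-box, searched after the sequence had been read, occurs at 2 places in the window, 85 and 55 bases before the start site. At least 1 copy is found in 7.15% of 32851 promoter windows of the same length and at least 2 copies in 0.594%. The TEAD motif GGAATG (in 14.7% of windows), the Nr4a motif AAAGGTCA (1.51%), the cyclic AMP response element TGACGTCA (1.79%) and the SRF CArG box (1.63%) were searched on both strands and had no match in it. The Moxd1 window matched none of these motifs and the Tmem163 window only the CArG box. The Tmem163 window belongs to another start site than that of the listed transcript.

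Other layer 6b and subplate markers were split between genes near Ctgf and genes far from it. Of 13 such genes, 10 were listed and 8 were tested, of which 6 had a positive log2 fold change and 2 a negative one, with a median of 0.11. Over all tested genes, 55.7% were positive and the median was 0.02. The median of these 8 was -0.06 without control 3 and 0.30 without control 2, so its direction rested on single control libraries. Among the 5 members other than Ctgf, 4 were positive and the median was 0.24, between 0.14 and 0.38 when any 1 library was left out.

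Rxfp1, the relaxin receptor found in a subset of layer 6b neurons, was nearest to Ctgf among these 8. It was at 1.55, 0.641 and 1.33 FPKM in the control libraries (1 to 3) and 3.56, 2.98 and 2.08 FPKM in the knockdown libraries (1 to 3). Of the 8, Rxfp1 alone was higher in every knockdown library than in any control, as were 4.45% of all tested genes. Its log2 fold change was 0.84 (limma adjusted p = 0.948), with a likeness rank of 13. Zfpm2, a cofactor of GATA factors, was at 2.01 ± 0.763 and 3.31 ± 1.13 FPKM (SD, n = 3 each) with overlapping groups. Lpar1, a lysophosphatidic acid receptor that oligodendrocytes also express, was at 12.8 ± 1.83 and 16.9 ± 2.07 FPKM (log2 fold change 0.37, limma adjusted p = 0.948).

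Nr4a2, Trh, Drd1 and Kcnab1 lay far from Ctgf, with likeness ranks of 11213 and above. Nr4a2 (Nurr1), a nuclear receptor and a textbook marker of subplate and claustrum, was at 6.18, 10.4 and 9.79 FPKM in the control libraries (1 to 3) and 3.92, 8.20 and 11.1 FPKM in the knockdown libraries (1 to 3). Knockdown 1, the highest library for Ctgf, was the lowest for Nr4a2, whose likeness rank was 11676. Trh, the thyrotropin-releasing hormone precursor, was at 2.97 ± 1.51 and 2.21 ± 0.752 FPKM. Svil, an actin-binding protein, was at 1.38 ± 0.279 and 1.58 ± 0.153 FPKM, with a rank of 4019 that lies between those of Nxph4 and Tmem163.

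Drd1, the D1 dopamine receptor, and Kcnab1, a potassium channel beta subunit, had log2 fold changes of 0.10 and 0.09. Their control libraries were spread widely, with Drd1 at 22.9, 30.8 and 9.02 FPKM in control 1, 2 and 3, and Drd1 is also a striatal marker. Inpp4b, a phosphoinositide phosphatase, and Htr1d, a serotonin receptor, were below the minimum for testing. Inpp4b was at 0.213, 0.395 and 0.375 FPKM in control and at 0.546, 0.436 and 0.537 FPKM in knockdown libraries. Its knockdown libraries were thus all higher, as in 4.45% of all tested genes. Htr1d was at 0.0228, 0.103 and 0.360 FPKM in control and at 0.852, 0.952 and 0.0403 FPKM in knockdown libraries, with overlapping groups.

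**Figure D4:**
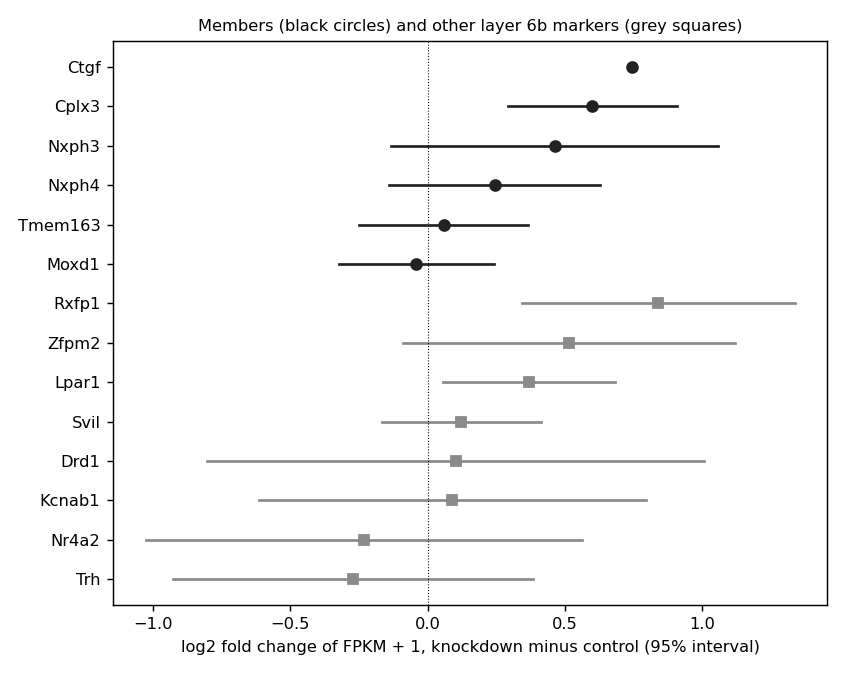
Log2 fold change of FPKM + 1 (knockdown minus control) with 95% intervals from limma for the 6 layer 6b genes (black circles, Ctgf without an interval because it was chosen by this value) and 8 other layer 6b markers (grey squares). Values run from 0.84 for Rxfp1 to -0.27 for Trh, and Tmem163 and Moxd1 lie near 0.

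Markers of the cortical layer just above, layer 6 corticothalamic neurons, had mostly positive differences. Of 10 markers 8 were positive, with a median of 0.34 and summed levels of 160 to 203 FPKM in control and 161 to 243 FPKM in knockdown libraries. Sulf1, a heparan sulfate sulfatase, was at 2.21 ± 0.525 and 3.33 ± 0.504 FPKM. It alone of the 10 was higher in every knockdown library, as were 4.45% of all tested genes. Upper layer markers were mostly negative, with 1 of 9 positive, a median of -0.36 and sums of 52.8 to 94.7 FPKM in control and 42.2 to 65.5 FPKM in knockdown libraries. Rspo1, a Wnt agonist, was at 4.47 ± 1.04 and 2.53 ± 0.255 FPKM, and Mdga1, an adhesion protein, at 1.61 ± 0.167 and 1.02 ± 0.277 FPKM, each lower in every knockdown library, as were 3.47% of all tested genes. For layer 5, 7 of 9 markers were positive with a median of 0.14, which was 0.0046 without control 2 and 0.29 without knockdown 3. None of these markers was called by limma. The corticothalamic median was 0.12 without control 2, and the upper layer median stayed between -0.45 and -0.25 when any 1 library was left out. The part of these layer differences in the levels of Ctgf and Cplx3 was not tested.

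Single libraries stood apart in markers of what lies around the layer. Striatal markers (12 of 12 tested) summed to between 381 and 1457 FPKM in control and between 611 and 860 FPKM in knockdown libraries. Their score, the median of the centred log2 values, was 0.87 in control 2 and -1.09 in control 3. On the log2 scale 7 of these 12 were positive, with a median of 0.02, while by mean FPKM 11 of the 12 were lower in knockdown and 1, Pde10a, was higher. Excitatory neuron markers of cortex were present in each library, with sums of 305 to 523 FPKM in control and 295 to 363 FPKM in knockdown libraries, 4 of 6 positive and a median of 0.22. Their score was -0.63 in control 2 and 0.38 in control 3. Slc17a7, a marker of this list, went the other way, with a log2 fold change of -0.53. It was at 86.5, 154 and 259 FPKM in control and at 114, 107 and 93.1 FPKM in knockdown libraries (1 to 3 each). Without control 2, the log2 fold change of Ctgf was 0.67 and that of Cplx3 0.52. Without control 3, they were 0.85 and 0.73.

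Oligodendrocyte markers, which fill the white matter next to layer 6b, were positive in 12 of 12 genes with a median of 0.34, which was 0.20 without knockdown 1 and 0.47 without control 1. Their sums were 1214 to 1554 FPKM in control and 1446 to 1953 FPKM in knockdown libraries, and their score was highest in knockdown 1 (0.42). Aspa, an enzyme of mature oligodendrocytes, was at 4.15 ± 0.427 and 6.07 ± 1.27 FPKM (log2 fold change 0.45, limma adjusted p = 0.948). It alone of the 12 was higher in every knockdown library, as were 4.45% of all tested genes. Ermn, a cytoskeletal protein of myelin, was at 31.3 ± 6.44 and 42.9 ± 5.87 FPKM. Precursor markers were positive in 8 of 8 genes with a median of 0.13, which was 0.25 without control 1. The part of these cells in the Ctgf level was not tested.

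Ctgf is also made by vessel and connective tissue cells, and their markers are given here for that reason. Endothelial markers were positive in 8 of 12 genes with a median of 0.06, and summed to 104 to 137 FPKM in control and 109 to 124 FPKM in knockdown libraries. Mural markers (8 of 10 positive) had a median of 0.03 and sums of 76.0 to 80.4 and 74.6 to 87.4 FPKM. Of 12 meningeal fibroblast markers, 9 were listed and 2 tested, both negative. They were Igf2 and Mgp, with a list median of -0.45, which was -0.09 without control 2 and -0.72 without knockdown 3. Astrocyte markers were positive in 8 of 12 genes with a median of 0.08. Gja1, the gap junction protein connexin 43, was at 7.30 ± 1.00 and 9.63 ± 1.23 FPKM. Gja1 and Slc1a2 were higher in every knockdown library, as were 4.45% of all tested genes. Aldoc, 1 of the 4 negative astrocyte markers, was at 187 ± 16.9 and 161 ± 22.9 FPKM with overlapping groups.

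Cplx3 is also found in Lamp5 and neurogliaform interneurons, and markers of these cells were split, with 3 of 6 positive and a median of -0.04. Lamp5 itself was at 38.2 ± 8.45 and 27.9 ± 9.20 FPKM with overlapping groups. Egln3, a prolyl hydroxylase, was at 2.24 ± 0.574 and 3.30 ± 0.198 FPKM (log2 fold change 0.42, limma adjusted p = 0.948). It was higher in every knockdown library, as were 4.45% of all tested genes. Ndnf, a marker below the minimum for testing, was lower in every knockdown library. It was at 0.914, 0.780 and 0.857 FPKM in control and at 0.652, 0.762 and 0.717 FPKM in knockdown libraries. Claustrum and endopiriform markers were positive in 2 of 6 genes with a median of -0.23, which was -0.07 without knockdown 1 and -0.35 without knockdown 3. Microglia markers were positive in 3 of 10 genes with a median of -0.06, although Cx3cr1, the fractalkine receptor, lay between 2.02 and 2.90 FPKM in control and between 3.94 and 8.82 FPKM in knockdown libraries (limma adjusted p = 0.948).

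Several of these medians changed sign with 1 library left out, which was -0.54 for striatal markers without control 3, -0.10 for excitatory neurons and -0.03 for endothelial markers without control 2, -0.0053 for mural markers without knockdown 3 and 0.0048 for microglia without control 2. With a scaling alternative, the striatal median was -0.0074 and that of Lamp5 interneurons 0.013. Without knockdown 3, it was 0.14 for astrocyte markers.

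**Figure D5:**
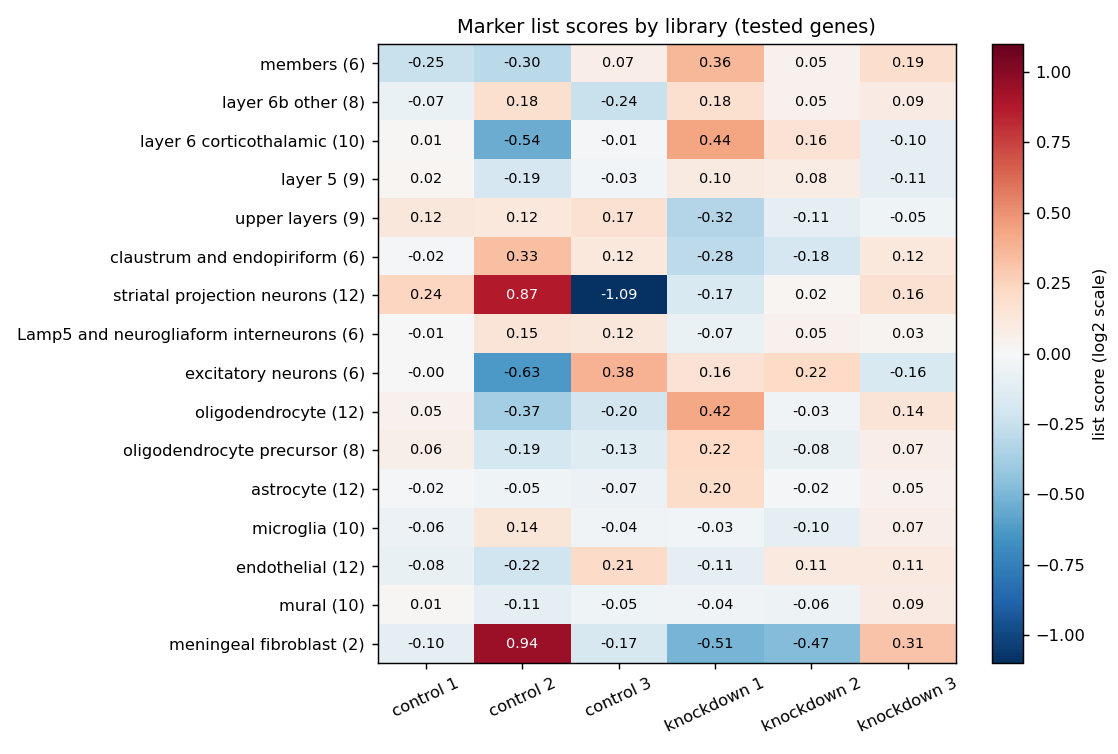
Score of each marker list (rows, with the number of tested genes) in each library (columns), as the median of log2(FPKM + 1) minus the gene's mean over the 6 libraries. The 6 layer 6b genes reach 0.36 in knockdown 1, and the widest spread is that of striatal markers between control 2 (0.87) and control 3 (-1.09).

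Genes that act upstream of Ctgf or share its control had medians near that of all genes, but RNA levels do not measure pathway activity. YAP and TAZ targets, of which 17 of 22 were listed, were positive in 8 of 15 tested genes with a median of 0.02 (below 0 with a scaling alternative, -0.02). Fjx1, with the smallest p of this list, was at 14.8 ± 0.834 and 12.9 ± 1.04 FPKM. It was lower in every knockdown library, as were 3.47% of all tested genes. The next in p, Lats2, Igfbp3 and Asap1, went the other way, with log2 fold changes of 0.16, 0.18 and 0.23 and overlapping groups. Rbms3, below the minimum for testing, was like Fjx1 lower in every knockdown library. It was at 1.34, 1.75 and 0.841 FPKM in control and at 0.202, 0.793 and 0.297 FPKM in knockdown libraries. Cyr61, the nearest relative of Ctgf and a YAP target, was at 2.35 ± 0.361 and 2.52 ± 0.690 FPKM. Nov, another member of the CCN family, was at 24.5 ± 4.69 and 19.2 ± 3.07 FPKM. Upstream regulators (TEAD, SRF, TGF-beta and Hippo pathway genes) were positive in 13 of 18 genes with a median of 0.06. Tgfbr2, a TGF-beta receptor, was at 1.17 ± 0.0398 and 1.72 ± 0.218 FPKM (log2 fold change 0.33, limma adjusted p = 0.948). It was higher in every knockdown library, as were 4.45% of all tested genes.

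Receptors and partners of Ctgf (integrins, Lrp1, Lrp6 and fibronectin) were positive in 8 of 8 tested genes with a median of 0.15, which was 0.04 without control 2. Itgav, the integrin alpha V chain, was at 0.816, 4.70 and 4.24 FPKM in the control libraries (1 to 3) and 5.41, 5.55 and 5.04 FPKM in the knockdown libraries (1 to 3). Its higher knockdown mean came mostly from control 1.

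The partners and relatives of the other members had list medians of 0.10 or less. Complexins and SNARE genes were positive in 6 of 8 genes with a median of 0.10, and Cplx1, the abundant relative of Cplx3, was at 185 ± 23.9 and 212 ± 28.6 FPKM. Neurexophilins and neurexins were positive in 3 of 4 tested genes with a median of 0.08 (-0.02 without control 2). Nxph1 was at 3.21 ± 0.580 and 3.46 ± 0.795 FPKM. The neurexin gene Nrxn3 was at 5.46 FPKM in knockdown 1 and between 12.7 and 14.5 FPKM in the other 5 libraries. Zinc transporters with Mcoln1, a lysosomal channel, were positive in 6 of 8 tested genes with a median of 0.06. Slc30a7, a zinc transporter of this list below the minimum for testing and named after its values were seen, was at 0.311, 0.187 and 0.224 FPKM in the control libraries (1 to 3) and 1.09, 1.13 and 0.670 FPKM in the knockdown libraries (1 to 3), with no overlap. Among the untested genes of all lists, Inpp4b, Slc30a7 and Tead1 were higher in every knockdown library, and Ndnf, Rbms3 and Tead3 were lower. The groups of the other untested list genes overlapped. Over all tested genes the shares were 4.45% higher and 3.47% lower, and no share over untested genes was computed. Pam, a copper monooxygenase like Moxd1, was at 6.86 ± 0.557 and 6.41 ± 0.391 FPKM. Without control 2, the median was 0.05 for complexins and SNARE genes and 0.03 for upstream regulators of Ctgf, and it was 0.02 for zinc transporters without knockdown 2.

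Moxd1 and Ctgf lie 293 kb apart on chromosome 10, and 8 listed genes were within 1 Mb of Ctgf, Ctgf included. Slc18b1, a polyamine transporter gene 767 kb before Ctgf, was at 2.76, 1.55 and 3.28 FPKM in the control libraries (1 to 3) and 3.95, 4.71 and 4.15 FPKM in the knockdown libraries (1 to 3) (log2 fold change 0.61, limma adjusted p = 0.948). Its groups did not overlap, with every knockdown library higher, as in 4.45% of all tested genes. In the other 6 neighbours, Moxd1, Rps12, Stx7, Med23, Akap7 and Epb41l2, the groups overlapped, with log2 fold changes between -0.21 (Rps12) and 0.11 (Stx7).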

How the data were processed

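RNA from mouse orbitofrontal cortex was made into strand-preserving libraries, per the labels' protocols. The authors deposited FPKM values for genes and for transcripts, per the file headers, with 1 column per library. Per the submitters' processing notes, the tools were FastQC, cutadapt, HISAT2 and StringTie. Their versions and the genome build are not given in the sources used here, but the coordinates of all 8 transcripts described equal those of GENCODE M21 (GRCm38). Read depth is unknown, so no counting interval is given and precision comes from the replicates.

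Values were tested as log2(FPKM + 1), with a pseudocount of 1, where the mean over all libraries reached 1 FPKM (11961 genes, 18476 transcripts). The test was limma 3.58.1 in R 4.3.3 with an intensity trend, knockdown against control, and Benjamini-Hochberg adjustment over all features at 0.05. The functions were tested on simulated data. Values were used as deposited, and 1 empty line in each table was not analysed here.

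The members and 23 gene lists were chosen with earlier results of these data known. Named genes are the members, all listed layer 6b markers, some of the up to 4 genes per other list with the smallest p, the 5 genes nearest to Ctgf and those within 1 Mb of it. Untested list genes with groups that did not overlap are also named, after their values were seen. Alternatives were another pseudocount (0.1), filters, scalings, variance models, a replicate block, summed transcripts and each library left out.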

Additional observations from a re-analysis of the deposited data

How the results depend on the processing

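Ctgf, Cplx3, Nxph3 and Nxph4 kept a positive log2 fold change under every alternative run (16 each), with ranges of 0.63 to 0.85, 0.52 to 0.73, 0.22 to 0.64 and 0.14 to 0.38. The test of Ctgf is not given, since this contrast chose the gene. No other member was called under any alternative (limma adjusted p from 0.221, for Cplx3 without control 3, to 1.00). The sign of Tmem163 turned when libraries were left out (range -0.05 to 0.13; -0.0034 without control 1 and -0.047 without knockdown 3). The sign of Moxd1 turned with a common sum (0.00059), with array weights (0.023) and without knockdown 3 (0.054, with a range when any library was left out of -0.091 to 0.054). With a mean of at least 5 FPKM, which drops Tmem163 and Moxd1, the median of the members other than Ctgf was 0.46. The median of the other layer 6b markers ranged from -0.061 to 0.30 with a library left out.

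Over the whole tables, the number of genes called was 1 with a common sum, 3 with array weights, 4 with summed transcripts and 0 to 3 with a library left out, against 0. Transcripts called numbered 8 with a mean of at least 5 FPKM, 44 with no intensity trend and 11 to 32 with a library left out, against 19. With the replicate block, limma called 0 transcripts (686 at an unadjusted p under 0.05). For pairing by number, the correlations of deviations from the group means were 0.184, -0.127 and -0.0708. The labels give no batch, and these values cannot show whether libraries of the same number shared one. Control 2 correlated best with knockdown 3 (0.269). Under the block, Cplx3 was still not called (limma adjusted p = 0.907). For all of these values, the cause was not tested. The likeness rank of Cplx3 under other settings was computed after seeing the data. Fold changes of features near 1 FPKM, such as Moxd1, are the least certain, since depth is unknown.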
